A study of Mus musculus with 4 samples.

Results

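The genes described here are those of the integrated stress response and the unfolded protein response: the kinases that phosphorylate the translation factor eIF2, targets of the transcription factors ATF4 and CHOP, and genes of endoplasmic reticulum (ER) stress. They were chosen as rows of the deposited table whose platform annotation names only the listed gene, with the brightest row kept for each gene. All 39 listed genes had such a row, out of 19938 genes in all. Expression was measured in E14 cells, a mouse embryonic stem cell line, with 2 arrays of Usp22 depleted cells, which were infected with a lentivirus carrying an shRNA against Usp22, and 2 arrays of control cells, whose lentivirus carried an shRNA against Luc. Both groups grew without feeder cells on gelatin with LIF, 20% FBS and the inhibitor pair called 2i, which blocks MEK (1 µM PD0325901) and GSK3 (3 µM CH99021). Usp22 is the deubiquitinase of the SAGA coactivator complex. The comparison asks which transcripts differ when Usp22 is reduced in this medium.

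Cells answer amino acid shortage, haem shortage and misfolded ER protein through kinases that phosphorylate eIF2. This lowers most translation while favouring translation of ATF4, which then switches on genes of amino acid supply and, with CHOP, genes that restrain or end the response. Misfolded protein in the ER also activates IRE1, which splices Xbp1 mRNA, and ATF6, which is released by cleavage. Both raise transcription of chaperones and of genes that send misfolded proteins for degradation. Much of this control acts on translation, splicing and cleavage, which array signals of mRNA do not measure.

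Usp22 signal checked the labels. The normalised log2 signal was 8.23 and 8.29 on the depleted arrays, against 9.41 and 9.36 on the control arrays (log2 difference −1.12, standard error 0.27, limma adjusted p = 0.00826). All 10 pluripotency markers, among them Pou5f1, Sox2 and Nanog, lay above the receptor background (6.99 on the log2 scale), the 95th percentile of the mean signals of 1190 olfactory and vomeronasal receptor genes. Of these markers, Klf4 (−0.64), Tfcp2l1 (−0.58), Esrrb (−0.50), Nanog (−0.42) and Pou5f1 (−0.31) stood lower in depleted cells without overlap. Sox2 (0.59), Utf1 (0.17), Klf2 (0.15) and Zfp42 (0.04) stood higher without overlap, Tdgf1 (0.08) overlapped, and 0 passed the test. The control arrays differed more from each other than the depleted arrays did, with a median gap over all genes of 0.18 between depleted arrays and 0.36 between control arrays on the log2 scale. The lower quartile of deposited intensity was 58.3 and 63.6 on the depleted arrays, against 67.3 and 72.2 on the control arrays. The summed deposited intensity of the markers of other cell types was also lower on both depleted arrays, although not every marker was. Thy1 of the fibroblast list and Eomes of the trophectoderm list stood higher without overlap (log2 differences 0.44 and 0.45), and Eomes lay under the receptor background. The median log2 differences of their lists were −0.25 and −0.26. Fibroblast markers summed to 1004 and 1084 on the depleted arrays, against 1101 and 1367 on the control arrays, and primitive endoderm markers to 497 and 540 on the depleted arrays, against 627 and 797 on the control arrays. Trophectoderm markers summed to 768 and 778 in depleted cells, against 1020 and 984 in controls, mesoderm markers to 647 and 587 in depleted cells, against 697 and 876 in controls, and neuroectoderm markers to 300 and 343 in depleted cells, against 382 and 467 in controls. Of the measured markers, 4 of 8, 3 of 5, 2 of 5, 3 of 3 and 1 of 4 of these lists lay above the receptor background, and 0 passed the test. Their part in the differences below was not tested.

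By group means, genes of ER protein folding and degradation stood mostly higher in depleted cells (11 of 13, median log2 difference 0.42). So did the stress sensors (median 0.53). Of all genes, 8498 of 19938 stood higher by their means, as did 4786 of the 9753 above the receptor background. Of the 6 feedback and effector genes, Chac1, Trib3, Sesn2 and Ppp1r15a stood lower, with log2 differences from −0.66 to −0.49, while Stc2 (0.84) and Ppp1r15b (0.35) stood higher. The amino acid and folate enzymes were higher for 5 of 6 members (median 0.24), and the transcription factors for 4 of 8 (median 0.06). Atf4 and the CHOP gene Ddit3 differed by 0.25 and −0.20. None of these differences passed the test. Of all 39 members, 0 rose and 0 fell (limma adjusted p under 0.05 over all genes), where 2.62% of all genes rose and 0.105% fell. At an unadjusted p under 0.05, 7 members were higher (17.9%) and 2 lower (5.13%), beside 15.4% and 6.63% of all genes. The smallest change that passed in any gene was 0.86 on the log2 scale, and the members ran from −0.66 (Chac1) to 0.84 (Stc2). The fit gave every gene the same standard error of 0.27, so that the 95% interval of each difference reached 0.53 to either side. With a variance trend on intensity and robust settings in limma, which lets the error depend on brightness, 1 member rose (Shmt2, beside 1.91% of all genes) and 3 fell (Atf5, Asns and Calr, beside 1.7%). Under the fit used here, a member described below as higher or lower is described by its values alone. The members' median difference was 0.26, against −0.12 over all genes and −0.03 over the brighter genes above the receptor background, where 34 of the 39 members lay. Over all genes the median stood at −0.24 with no further scaling of the deposited log2 values and at −0.09 with arrays centred, and relative to it the members' median was 0.55 in both, against 0.38 as quantile-normalised. Fewer cells with a transcript and less transcript per cell cannot be told apart in such bulk RNA.

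The members did not share 1 direction. Both depleted arrays lay above both control arrays for 20 members (51.3%, beside 27.4% of all genes and 36.8% of those above the receptor background). They lay below both for 10 (25.6%, beside 33.3% and 37.7%), and the groups overlapped for 9. With a fold of at least 1.5 as well, 5 members were higher (12.8%, beside 12.1% of all genes) and 2 lower (5.13%, beside 3.35%), so these shares were close to those of all genes. Scaling moved this split: with each array centred on its median 10 members were higher and 0 lower (beside 17.4% and 1.61% of all genes), and on the deposited log2 values 2 were higher and 1 lower (beside 8.69% and 8.3%). Centring gave some higher members differences more than 1.5 times as large, with Atf4 at 0.47, Ppp1r15b at 0.56 and Sdf2l1 at 0.50. Phgdh, Psat1 and Psph then stood at 0.35, 0.47 and 0.49, and Pdia3, Pdia4 and Pdia6 at 0.64, 0.58 and 0.58. Xbp1, Mthfd2 and Canx, with smaller differences as quantile-normalised, stood at 0.36, 0.27 and 0.28. As quantile-normalised, the 5 were Stc2, Shmt2, Edem2, Herpud1 and Eif2ak3, and the 2 were Chac1 and Atf5.

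**Figure D1:**
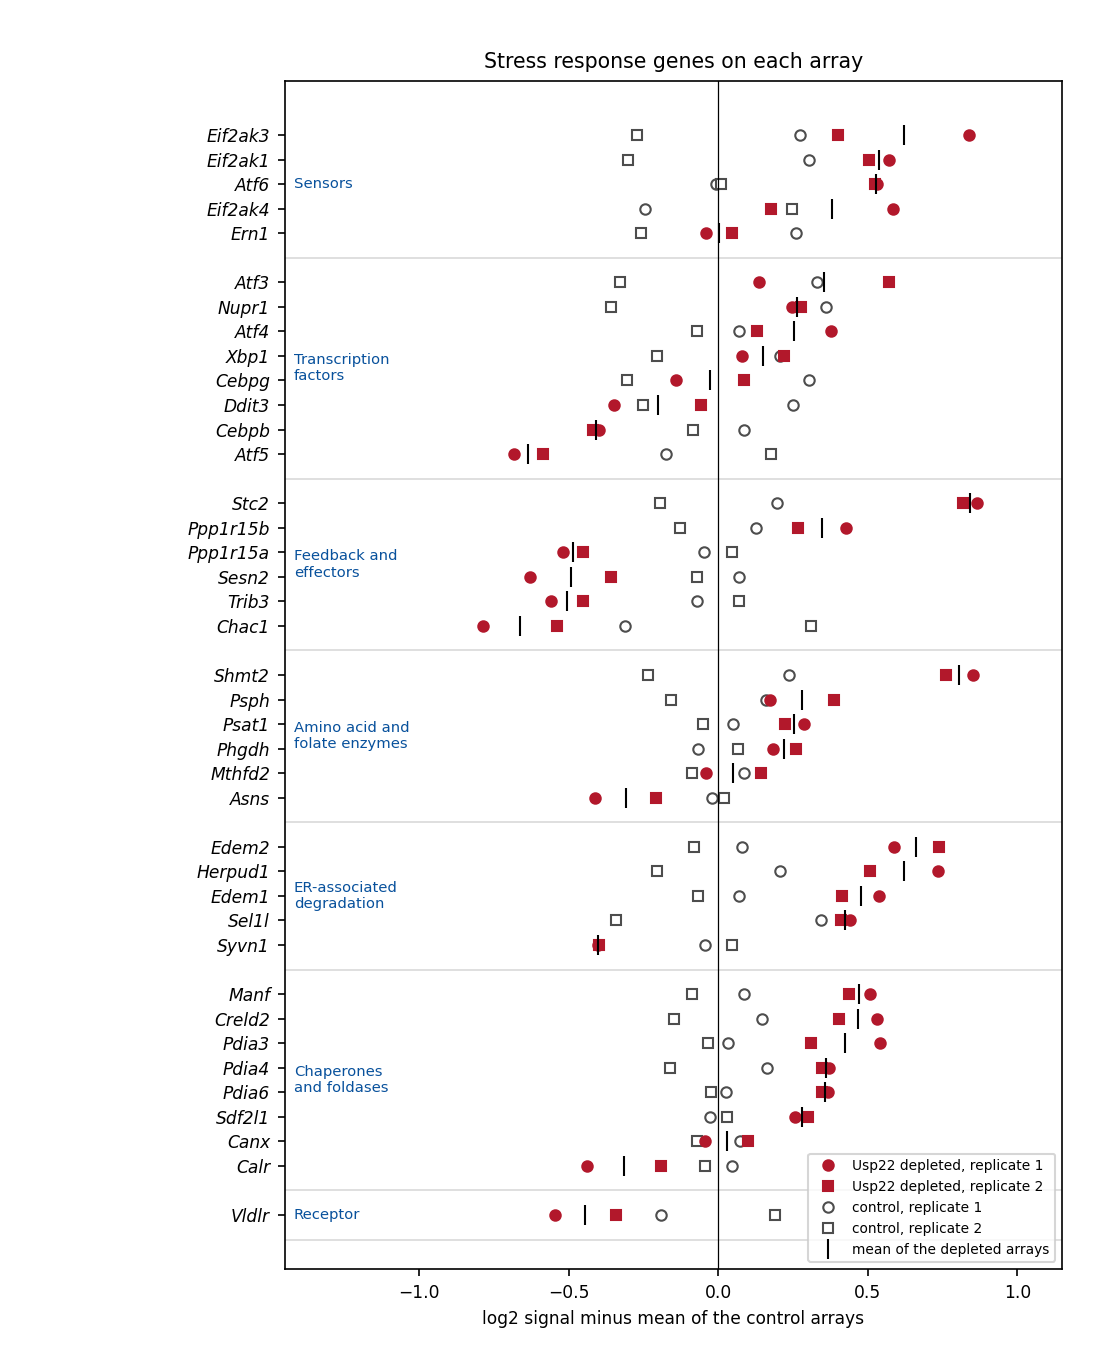
Log2 signal of each of the 39 members on each array (horizontal axis), minus the mean of the control arrays, with members grouped by role and ordered by difference. Filled red symbols are the depleted arrays, open symbols the control arrays, and the vertical tick is the mean of the depleted arrays. Most ER degradation and chaperone genes lie right of 0 on both depleted arrays, while Chac1, Trib3, Sesn2 and Ppp1r15a lie left of it.

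Among the sensors, the signals of the eIF2 kinases and of Atf6 were higher by their group means. Eif2ak3 encodes PERK, the eIF2 kinase of the ER membrane. It read 7.75 and 7.31 on the depleted arrays, against 7.18 and 6.63 on the control arrays (log2 difference 0.62, limma adjusted p = 0.162). The groups did not overlap, yet the lower depleted array stood only just above the higher control array, and the difference was 0.35 without control replicate 2. Eif2ak1, the haem-regulated kinase, read 7.69 and 7.62 in depleted cells, against 7.42 and 6.81 in controls (0.54, limma adjusted p = 0.218). Control replicate 2 was the low array here, and without it the difference was 0.23. Atf6 had the tightest replicates of the sensors, at 7.79 and 7.78 in depleted cells, against 7.25 and 7.26 in controls. Its difference of 0.53 was larger than the gap between replicates in either group, although the limma adjusted p was 0.225. Leaving out any array kept it between 0.52 and 0.54. Eif2ak4, which encodes GCN2, the sensor of uncharged tRNA, overlapped between the groups (7.58 and 7.17 in depleted cells, against 6.75 and 7.24 in controls; 0.38). Ern1, which encodes IRE1, lay under the receptor background and differed by 0.00, with a 95% interval from −0.52 to 0.53. Its sign turned under other scaling (−0.04 with each array centred on its median, −0.18 on the deposited log2 values).

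The transcription factors had members on both sides of 0, with 4 higher and 4 lower by their means and a median of 0.06. Atf5, an ATF4 relative translated under eIF2 phosphorylation, was the lowest of them. Its signal was 8.84 and 8.94 on the depleted arrays, against 9.35 and 9.70 on the control arrays (−0.64, limma adjusted p = 0.154), and the groups did not overlap. With the variance modelled as an intensity trend with robust settings in limma, Atf5 passed (adjusted p = 0.0138), and it stood at −0.41 with each array centred on its median. Cebpb, a C/EBP partner of ATF4 and CHOP, read 7.11 and 7.09 in depleted cells, against 7.59 and 7.42 in controls (−0.41, limma adjusted p = 0.315). Atf4 itself read 9.13 and 8.88 in depleted cells, against 8.82 and 8.68 in controls (0.25, limma adjusted p = 0.513). Atf4 and Atf5 thus stood on opposite sides of 0. Ddit3, which encodes CHOP, read 7.33 and 7.62 in depleted cells, against 7.93 and 7.43 in controls (−0.20). The arrays of the groups interleaved for Ddit3, and the difference was 0.05 without control replicate 1. Overlap was also seen for Cebpg (−0.03, and 0.10 with each array centred on its median), Xbp1 (0.15), Nupr1 (0.26) and Atf3 (0.35), and Nupr1 and Atf3 lay under the receptor background. Without control replicate 2, Atf3 stood at 0.02, Xbp1 at −0.05 and Nupr1 at −0.10. The Xbp1 signal does not separate its spliced and unspliced forms.

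Of the 6 feedback and effector genes, 4 were lower and 2 higher, each without overlap (66.7% and 33.3%). Of all genes, 33.3% were lower and 27.4% higher without overlap, and of those above the receptor background 37.7% and 36.8%. Chac1, which encodes a glutathione-degrading enzyme downstream of ATF4, read 7.19 and 7.44 on the depleted arrays, against 7.67 and 8.29 on the control arrays (−0.66, limma adjusted p = 0.137). Control replicate 2 was its highest array, and the difference was −0.35 without that array and −0.97 without control replicate 1. Trib3, a pseudokinase gene whose product restrains ATF4 and CHOP, read 7.87 and 7.97 in depleted cells, against 8.36 and 8.50 in controls (−0.51, limma adjusted p = 0.240). Ppp1r15a, which encodes GADD34, the inducible subunit that brings a phosphatase to eIF2, read 7.12 and 7.19 in depleted cells, against 7.60 and 7.69 in controls (−0.49, limma adjusted p = 0.254). For both of these genes the gap between the groups exceeded the gap within either group. Sesn2, a leucine sensor of the mTORC1 pathway, read 8.45 and 8.72 in depleted cells, against 9.15 and 9.01 in controls (−0.49, limma adjusted p = 0.249). Leaving out any array kept Trib3 between −0.58 and −0.43, Ppp1r15a between −0.53 and −0.44 and Sesn2 between −0.63 and −0.36. With each array centred on its median, Sesn2 stood at −0.28 (limma adjusted p = 0.486), Trib3 at −0.33 and Ppp1r15a at −0.41.

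The 2 higher genes of this group were Stc2 and Ppp1r15b. Stc2, which encodes the secreted glycoprotein stanniocalcin 2, came nearest to the threshold of all members. It read 7.07 and 7.03 on the depleted arrays, against 6.41 and 6.01 on the control arrays (0.84, or 1.79-fold, limma adjusted p = 0.0553). Its mean over the 4 arrays lay under the receptor background. It passed with each array centred on its median (limma adjusted p = 0.0474) and with the dimmest 0.25 of genes left out (0.0293). Ppp1r15b, the constitutive counterpart of Ppp1r15a, read 8.81 and 8.64 in depleted cells, against 8.50 and 8.25 in controls (0.35, limma adjusted p = 0.380). A second probe set of Ppp1r15b differed by 0.47 in the same direction. The inducible and the constitutive phosphatase subunits thus stood on opposite sides of 0, and neither passed.

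**Figure D2:**
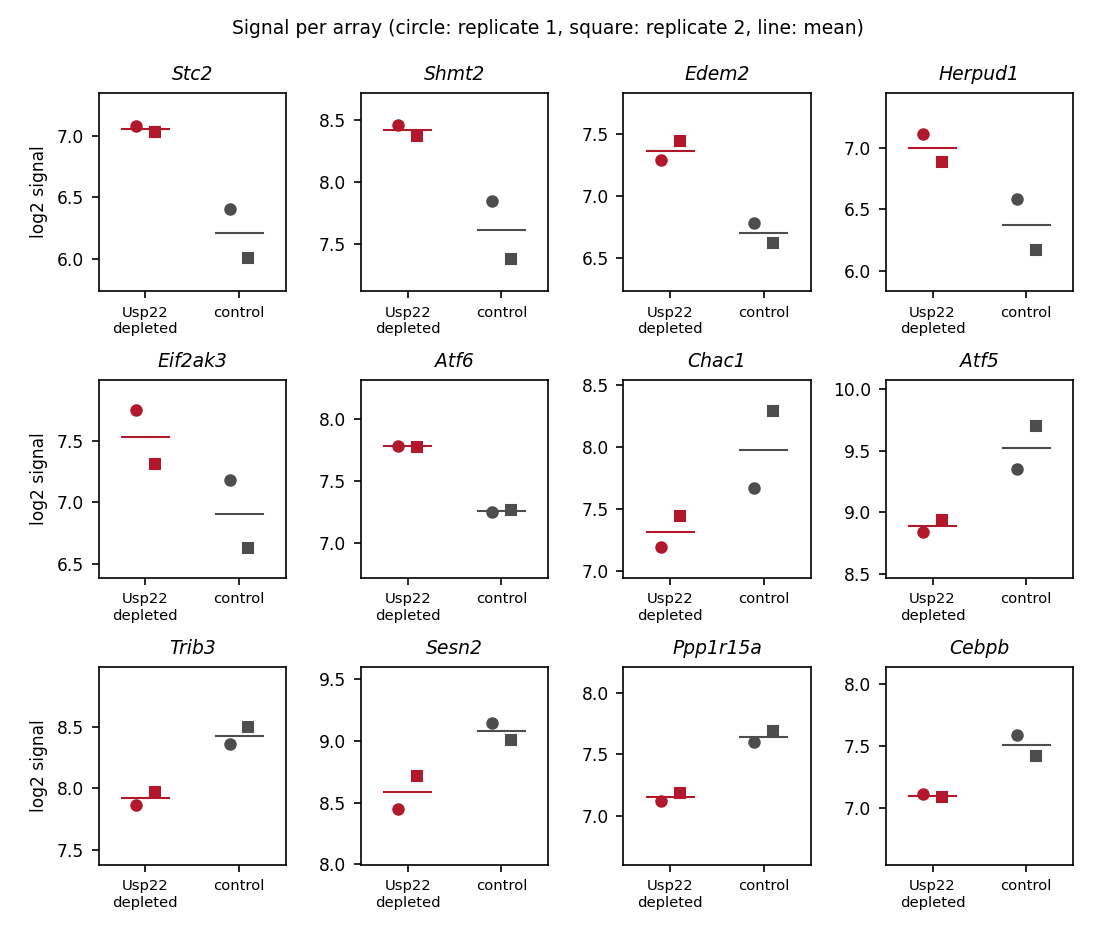
Normalised log2 signal (vertical axis, the same span in each panel) of 12 members on the depleted arrays (red, left) and control arrays (grey, right). Circles are replicate 1, squares replicate 2, and lines the group means. Atf6, Trib3 and Ppp1r15a show small gaps within each group, and Chac1, Shmt2 and Eif2ak3 show wide ones between the control arrays.

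The amino acid and folate enzymes that ATF4 controls did not share 1 direction. Shmt2, the mitochondrial serine hydroxymethyltransferase that passes carbon from serine to folate, read 8.46 and 8.37 on the depleted arrays, against 7.85 and 7.38 on the control arrays (0.81, or 1.75-fold, limma adjusted p = 0.0692). The groups did not overlap, and the difference was 0.57 without control replicate 2. Shmt2 passed with the trend and robust settings (adjusted p = 0.0497) and with each array centred on its median (0.0268). Mthfd2, the next enzyme of the mitochondrial folate pathway, overlapped between groups (8.75 and 8.94 in depleted cells, against 8.88 and 8.71 in controls). Its difference was 0.05, and 0.27 with each array centred on its median. The enzymes of serine synthesis, Phgdh, Psat1 and Psph, were higher without overlap by 0.22, 0.25 and 0.28 (limma adjusted p from 0.467 to 0.566). Asns, the asparagine synthetase and a standard ATF4 target, read 11.08 and 11.28 in depleted cells, against 11.47 and 11.51 in controls (−0.31, limma adjusted p = 0.428). It passed with the trend and robust settings (limma adjusted p = 0.0309), but stood at −0.06 with each array centred on its median.

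Genes of ER-associated degradation were higher for 4 of 5 members, with a median of 0.48. Edem2, a mannosidase-family gene that marks misfolded glycoproteins, read 7.29 and 7.44 on the depleted arrays, against 6.79 and 6.63 on the control arrays (0.66, or 1.58-fold, limma adjusted p = 0.137). Leaving out any array kept it between 0.58 and 0.74. Herpud1, an ER membrane protein gene of the degradation complex, read 7.11 and 6.88 in depleted cells, against 6.58 and 6.17 in controls (0.62, limma adjusted p = 0.162), and lay under the receptor background by its mean. Edem1 read 7.96 and 7.84 in depleted cells, against 7.50 and 7.36 in controls (0.48, limma adjusted p = 0.261). Sel1l and Syvn1 encode the adaptor and the ubiquitin ligase of the same complex, and they stood on opposite sides of 0. Sel1l read 8.06 and 8.03 in depleted cells, against 7.97 and 7.28 in controls (0.42, and 0.08 without control replicate 2). Syvn1 read 9.21 and 9.21 in depleted cells, against 9.57 and 9.66 in controls (−0.40, limma adjusted p = 0.322), and stood at −0.19 with each array centred on its median.

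The chaperones and foldases were higher for 7 of 8 members, 6 of them without overlap (75%, beside 27.4% of all genes and 36.8% of those above the receptor background, where all 8 lay), with a median of 0.36. Manf, which encodes a secreted and ER-resident stress protein, read 9.39 and 9.32 on the depleted arrays, against 8.97 and 8.80 on the control arrays (0.47, limma adjusted p = 0.264). Creld2, an ER stress-induced gene, read 8.71 and 8.58 in depleted cells, against 8.33 and 8.03 in controls (0.47, limma adjusted p = 0.268). The disulfide isomerase genes Pdia3, Pdia4 and Pdia6 differed by 0.42, 0.36 and 0.36. Pdia6 had close replicates, at 10.23 and 10.22 in depleted cells, against 9.89 and 9.84 in controls. A second, dimmer probe set of Pdia4 went the other way (−0.58), so that the average of both stood at −0.11. Sdf2l1, a partner of ER chaperones, differed by 0.28. The lectin chaperones stood apart from the isomerases. Canx overlapped between groups (0.03, and 0.28 with each array centred on its median). Calr read 10.69 and 10.93 in depleted cells, against 11.17 and 11.08 in controls (−0.32, limma adjusted p = 0.420). Calr passed with the trend and robust settings (limma adjusted p = 0.0476) and stood at −0.03 with each array centred on its median. Together, 11 of the 13 degradation and chaperone genes were higher by their means, as quantile-normalised, with arrays centred on their medians and on the deposited log2 values, and 0 of the 13 passed the test in any of these. The number higher was 10 with probe sets averaged (median 0.42), without control replicate 2 (median 0.32) and without depleted replicate 2 (median 0.44). Vldlr, a lipoprotein receptor gene induced through PERK and ATF4, averaged 7.11 ± 0.15 in depleted cells and 7.55 ± 0.27 in controls (SD, n = 2 each; −0.44, limma adjusted p = 0.285), without overlap.

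**Figure D3:**
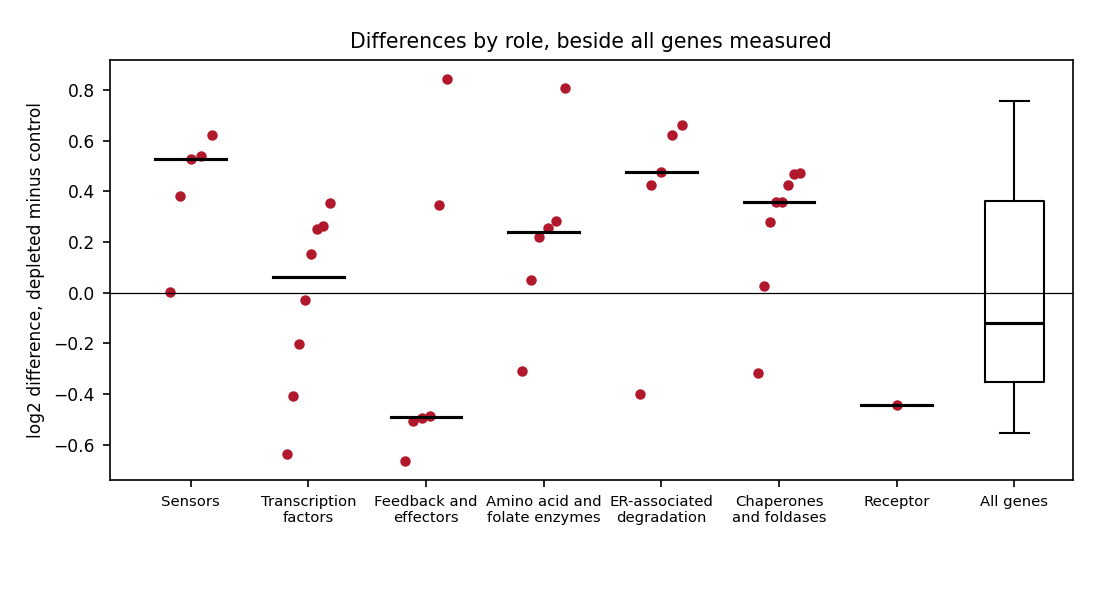
Log2 difference, depleted minus control (vertical axis), of each member by role, with a line at the median of each role. The box at the right holds the quartiles of all 19938 genes, with whiskers at the 5th and 95th percentiles. Feedback and effector genes have the lowest median of the roles with more than 1 member (−0.49) and sensors the highest (0.53), and 4 members lie beyond the whiskers, which end at −0.55 and 0.76: Stc2 and Shmt2 above, Chac1 and Atf5 below.

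Promoter sequences are shown for some of the members whose window carries a known stress element, and the differences of all such members are given after them. RefSeq promoter windows (GRCm38.p6, 250 bases before to 50 after the annotated start) were available for 36 of the members, in 40 windows. They were searched on both strands for the ATF4 and C/EBP composite element TGATGNAA, the ER stress element (CCAAT and CCACG with 9 bases between them) and the XBP1 and ATF6 element TGACGTGG, and no matches of different elements overlapped. The composite element was found in 7 of the 40 windows (17.5%, beside 3.97% of 32851 windows), those of Atf3, Nupr1, Trib3, Chac1, Asns, Herpud1 and Vldlr. The ER stress element was found in 5 windows (12.5%, beside 0.119%), those of Syvn1, Calr, Canx, Pdia6 and Creld2. The third element was found in 0 (beside 0.676%). The stretches below run 5′ to 3′ on the strand of the gene, and capitals mark the match, on either strand.
Chac1, chr2:119351023-119351082, plus strand: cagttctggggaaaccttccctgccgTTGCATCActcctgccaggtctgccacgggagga
Asns, chr6:7693210-7693258, minus strand: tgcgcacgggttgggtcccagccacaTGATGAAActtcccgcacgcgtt
Herpud1, chr8:94386291-94386350, plus strand: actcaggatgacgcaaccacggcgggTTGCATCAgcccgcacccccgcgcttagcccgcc
Calr, chr8:84847049-84847119, minus strand: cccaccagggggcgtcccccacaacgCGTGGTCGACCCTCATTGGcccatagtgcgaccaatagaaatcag
Syvn1, chr19:6046506-6046575, plus strand: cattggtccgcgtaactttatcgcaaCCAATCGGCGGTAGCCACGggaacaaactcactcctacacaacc
Pdia6, chr12:17266465-17266535, plus strand: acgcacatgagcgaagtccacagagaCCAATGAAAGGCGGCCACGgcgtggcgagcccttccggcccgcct
Creld2, chr15:88819494-88819564, plus strand: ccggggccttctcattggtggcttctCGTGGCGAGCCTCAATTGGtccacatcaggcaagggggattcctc

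Of the genes with the composite element, Chac1 (−0.66), Trib3 (−0.51), Vldlr (−0.44) and Asns (−0.31) were lower, and Herpud1 (0.62), Atf3 (0.35) and Nupr1 (0.26) were higher by their means. Of those with the ER stress element, Syvn1 (−0.40) and Calr (−0.32) were lower, Canx was at 0.03, and Pdia6 (0.36) and Creld2 (0.47) were higher. The 3 higher genes with the composite element all lay under the receptor background by their means, and Atf3 and Nupr1 overlapped between groups, while the 4 lower ones lay above it. None of these differences passed the test, so the signs are given as a description. The matches are letters in a window and were not tested as sites.

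Further genes of both pathways, outside the 39, were measured as well. Of 37 measured genes of the integrated stress response (amino acid transporters, tRNA synthetases, eIF2B subunits and others), 0 rose and 0 fell by limma. Of all genes, 2.62% rose and 0.105% fell. The median difference of the 37 was 0.18. At an unadjusted p under 0.05, 2 were higher and 2 lower (5.41% each, beside 15.4% and 6.63% of all genes). Without overlap, 18 were higher and 6 lower (48.6% and 16.2%, beside 27.4% and 33.3% of all genes). Of all genes above the receptor background, 36.8% were higher and 37.7% lower without overlap. Mars1, the methionyl-tRNA synthetase gene, stood at 0.60, Ddit4, a brake on mTORC1, at 0.59, and Eif2b3, an eIF2B subunit gene, at 0.52. On the lower side stood the hormone gene Fgf21 at −0.62, the tryptophanyl-tRNA synthetase gene Wars at −0.58 and the repressor gene Jdp2 at −0.52. The cystine transporter gene Slc7a11 overlapped between groups (−0.22) and lay under the receptor background.

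Of 39 measured further genes of the unfolded protein response, 3 rose and 0 fell by limma (beside 2.62% and 0.105% of all genes), with a median of 0.39. Without overlap, 25 were higher and 4 lower (64.1% and 10.3%, beside 27.4% and 33.3% of all genes). Of all genes above the receptor background, 36.8% were higher and 37.7% lower in this way. At an unadjusted p under 0.05, 10 were higher and 1 lower (25.6% and 2.56%, beside 15.4% and 6.63% of all genes). Hspa13, an Hsp70-family gene of the ER, read 7.64 and 7.60 on the depleted arrays, against 7.07 and 5.89 on the control arrays (1.14, limma adjusted p = 0.00739). Pdia5, a disulfide isomerase gene, read 7.85 and 7.90 in depleted cells, against 7.48 and 6.50 in controls (0.89, limma adjusted p = 0.0419). Ero1b, which encodes an oxidase that recharges disulfide isomerases, read 6.89 and 6.68 in depleted cells, against 6.29 and 5.52 in controls (0.87, limma adjusted p = 0.0458), and lay under the receptor background by its mean. Control replicate 2 was the lowest array for each of these 3, and without it they stood at 0.55, 0.40 and 0.49 (limma adjusted p from 0.247 to 0.356). Dnajb9, a co-chaperone gene regulated by XBP1, averaged 7.90 ± 0.13 in depleted cells and 7.21 ± 0.015 in controls (SD, n = 2 each; 0.69, limma adjusted p = 0.119), without overlap. The main ER chaperone genes Hspa5 (BiP) and Hsp90b1 (GRP94) stood at 0.16 and 0.22, both without overlap. The lower genes with the smallest p were Atf6b, the Atf6 paralog (−0.63), the degradation lectin gene Os9 (−0.43) and the chaperone gene Hyou1 (−0.32).

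Control replicate 2 also weighed on the members themselves. For 28 of the 39 it read lower than control replicate 1, where 51.0% of all genes read higher on control replicate 1, and the control gap exceeded the depleted gap for 32 members, as it did for 71.2% of all genes. Without control replicate 2 the median of the members was 0.12, with 22 higher and 17 lower by their means and 0 past the test, where 0.331% of all genes rose and 0.01% fell. Without control replicate 1, 12 members rose and 5 fell (30.8% and 12.8%, beside 24.5% and 21.2% of all genes). The 12 were Stc2, Shmt2, Eif2ak3, Eif2ak1, Herpud1, Sel1l, Edem2, Atf3, Nupr1, Creld2, Manf and Edem1, while those that fell were Chac1, Atf5, Vldlr, Trib3 and Ppp1r15a. Without either depleted array, 0 members passed, where 0 of all genes passed without replicate 1 and 0.00502% fell without replicate 2.

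**Figure D4:**
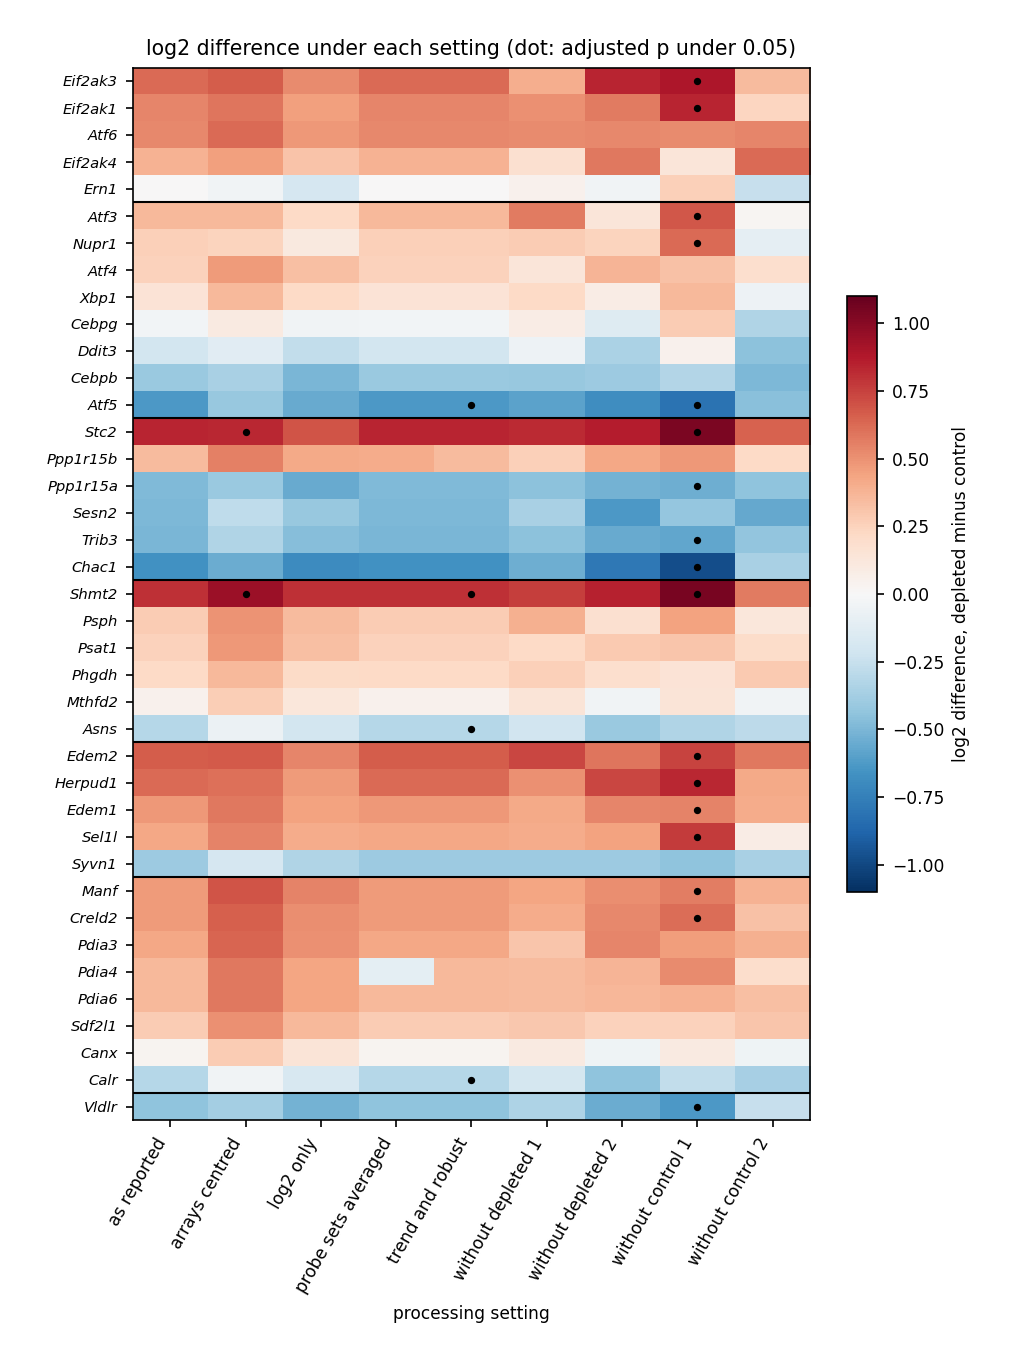
Log2 difference, depleted minus control (colour), of each member (rows, by role) under each processing setting (columns), with a dot where the limma adjusted p was under 0.05. The sign turns in at least 1 column for Ern1, Ddit3, Cebpg, Xbp1, Nupr1, Mthfd2, Canx and Pdia4. The other members, among them Stc2, Shmt2, Edem2, Atf6, Chac1, Atf5, Trib3, Sesn2 and Ppp1r15a, have 1 sign in every column shown. Most dots lie in the column without control replicate 1.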

How the data were processed

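Per the labels' protocols, RNA was purified with Trizol and columns, and biotin-labelled cDNA was hybridised to 4 Affymetrix arrays. The authors deposited a linear intensity for each of 28856 probe sets. How it was corrected, summarised and scaled is not given in the sources used here. These intensities were converted to log2 and quantile-normalised. Genes were named from GEO's platform annotation (1 symbol for 21789 probe sets), and the brightest row was kept for each of 19938 genes. Groups were compared with limma 3.58.1 (R 4.3.3; lmFit, eBayes; two-sided), with Benjamini-Hochberg adjustment across all genes and a threshold of 0.05. An exact permutation test of these groups cannot go below p = 0.333. The labels name no separate cultures, so the spread may be technical, and the number of arrays limits precision. Members, lists, motifs and the naming rule (Usp22, all members, 4 fixed further genes and the 3 with the lowest p per list and direction) were chosen with earlier results of these data known. The tests were checked on simulated data with the same spread for every gene and in both groups. That check does not cover the wider spread between the control arrays. The 12 alternatives were other scalings, filters on dim genes, other variance models, averaged probe sets, a replicate block and leaving out each array.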

Additional observations from a re-analysis of the deposited data

How the results depend on the processing

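0 members passed in the fit used here, on the deposited log2 values and with probe sets averaged. The count that rose was 2 with arrays centred on their medians, beside 927 of 19938 genes. It was 2 with the dimmest 0.25 of genes left out, beside 739 of 14953, and 1 with the dimmer 0.5 left out, beside 692 of 9969. With an intensity trend it was 1, with or without robust settings, beside 381 and 326 of 19938 genes. The count that fell was 3 with the trend, with or without robust settings, and 0 to 5 with 1 array left out. Members higher without overlap at 1.5-fold numbered 10 with arrays centred, 2 on the deposited log2 values and 3 with the dimmer 0.5 left out. Of all genes, 3478, 1733 and 1213 (the last of 9969) were higher in this way. Members lower numbered 0, 1 and 2, beside 321, 1654 and 474 of all genes. With 1 array left out, 2 to 10 members were higher and 0 to 3 lower. Of all 19938 genes, 968 to 4472 were then higher and 278 to 3402 lower. Further pathway genes that rose numbered 6 with arrays centred, 1 on the deposited log2 values, 6 with the dimmer 0.5 left out and 0 to 28 with 1 array left out, while 1 fell with the trend, with or without robust settings, and 0 to 7 with 1 array left out. These further genes numbered 76 in the fit used here. Over all 19938 genes, 927 rose with arrays centred and 75 on the deposited log2 values. With the dimmer 0.5 left out, 692 of 9969 rose. Under the trend, 339 of 19938 fell with robust settings and 286 without. The upper ends of the further genes' ranges came without control replicate 1, where the shares of all genes given above were also largest. The members' median was 0.45 with arrays centred and 0.12 to 0.32 with 1 array left out. With the replicate number as a block, 2 members rose (Stc2 and Shmt2) and 0 fell, and calls over all genes were 856 and 42, against 523 and 21 without it. Deviations of same-numbered arrays correlated at 0.10 across genes, and the labels do not say that the numbers pair the arrays.

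Signs turned for 8 members. Ern1 stood at −0.042 with arrays centred and −0.18 on the deposited log2 values, Cebpg at 0.10 with arrays centred, and Pdia4 at −0.11 with probe sets averaged. With 1 array left out, Ern1 ran from −0.26 to 0.26, Ddit3 from −0.45 to 0.048, Cebpg from −0.33 to 0.28, Xbp1 from −0.054 to 0.36, Nupr1 from −0.10 to 0.62, Mthfd2 from −0.042 to 0.14 and Canx from −0.044 to 0.10. Usp22 kept its direction under all 12 alternatives, but its call was lost without depleted replicate 1 or 2 (limma adjusted p = 0.830 and 0.360). With 1 array left out, the lone array of a group is assumed to vary like the pair of the other group. The causes of these shifts were not tested. Differences of dim members such as Stc2, Herpud1, Atf3, Nupr1 and Ern1 are limited by signal near the receptor background.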
